A study of Mus musculus with 16 samples.

Results

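A set of 30 genes that attach or remove SUMO, or that ubiquitinate or deubiquitinate SMAD proteins and the TGFβ receptors, was followed by name through the 16 libraries, and 29 of the 30 were found among the 12100 genes of the table (Senp7 was not analysed here). They were ordered by role into 4 SUMO modifiers and activating-enzyme subunits, 6 SUMO ligases, 5 SUMO proteases, a pair of SUMO-dependent nuclear genes (Rnf4 and Pml), 7 HECT-type ubiquitin ligases, the U-box ligase Stub1 and 4 deubiquitinases. Each library was poly(A)-selected RNA of mouse embryo fibroblasts (MEFs). WT cells were Ark+/+, and null cells were Ark-/-, without the ubiquitin ligase Arkadia (gene Rnf111). The rvWT and sim cells were Ark-/- cells infected with a murine leukaemia retrovirus whose CAG promoter drove Arkadia together with EGFP. The Arkadia of rvWT was wild type, and that of sim had hydrophobic residues of its SUMO-interacting motifs changed to alanine. TGFβ was given at 2.5 ng/ml. By the codes in the library names, set A held WT and null at 0, 1, 4 and 16 h, and set B held rvWT and sim at 0, 1 and 4 h with null at 0 and 1 h; values are given in that order of times. WT and null are separate cell lines and no empty-virus library was used here, so Arkadia cannot be told apart from the line in WT or from the virus in rvWT and sim. Nearly every line had 1 library per time, so its times stand in for replicates, and no separate cultures are named; p-values thus measure only the spread between these libraries. Bulk RNA cannot tell fewer cells of a type from less RNA per cell.

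SUMO is a small protein that is joined to lysines of other proteins by an activating enzyme (Sae1 with Uba2) and, further on, ligases such as the PIAS proteins, and it is taken off again by SENP proteases. Proteins with SUMO-interacting motifs read the mark, and SUMO-targeted ubiquitin ligases such as Rnf4 and Arkadia ubiquitinate proteins that carry SUMO chains. TGFβ signals through receptor kinases that phosphorylate SMAD proteins, and HECT ligases of the NEDD4 family ubiquitinate SMADs and the receptors, partly with SMAD7 as adaptor, while deubiquitinases of the USP family reverse this.

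Rnf111 stood at 14.5 to 15.1 FPKM in WT, at 0.12 to 0.20 in null of set A, at 0.44 to 0.53 in null of set B, at 102.5 to 125.8 in rvWT and at 56.0 to 62.1 in sim; this matches the label of every library. Sums of FPKM (fragments scaled to transcript length and to library size) ran from 397019 to 481970 per library, and read depth is unknown. Of 7 fibroblast markers 6 were in the table, with sums of 2601 to 3047 FPKM in WT and 2808 to 5907 in the other lines. Single markers went different ways. In set A at 0 h, Col1a1, Col1a2, Vim, Thy1 and Pdgfrb were lower in WT than in null, and Fn1 was higher, at 889 against 370 FPKM. Epithelial markers (2 of 4 in the table) summed to at most 13.9 FPKM, haematopoietic markers (2 of 3) to at most 15.4, endothelial markers (1 of 3) to at most 6.98 and pluripotency markers (1 of 3) to at most 2.57. The TGFβ targets Smad7 and Pmepa1 were called higher at 1, 4 and 16 h. Null cells of the separate sets were not alike: at both 0 and 1 h, 7 of the 29 members, and 25.6% of 11065 genes, differed between them in the same direction by at least 0.3 on the log2 scale.

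Within these fibroblasts the members spanned a wide range of RNA levels. Nedd4, the founding HECT ligase of its family, had the highest mean over the 16 libraries at 307.0 FPKM, and its close relative Nedd4l was among the lowest at 5.51 FPKM. Next to Nedd4 came the basic SUMO machinery, with Sumo2 at 99.0, Sae1 at 89.8, Sumo3 at 74.7 and Uba2 at 67.7 FPKM. Rnf4 (58.8 FPKM) and Stub1 (57.8 FPKM) followed. The SUMO ligases were lower, from Ranbp2 at 33.1 to Pias3 at 6.43 FPKM, and the deubiquitinases ran from Usp4 at 34.7 to Usp11 at 5.28 FPKM. The steadiest member was Usp4, whose highest library was 1.18 times its lowest, followed by Rnf4 at 1.28 times. Pias3 varied 12.5-fold, through the single WT library at 16 h, and Smurf1 varied 4.44-fold.

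Line differences are given on the log2(FPKM + 1) scale with the standard error and limma's Benjamini-Hochberg adjusted p over all genes tested, and a gene was called below 0.05. In WT against null of set A, 12 members were higher and 9 lower, beside 37.4% of 10976 genes called higher and 30.1% called lower. In rvWT against null of set B, 2 members were higher and 5 lower, beside 16% and 22.6% of 10958 genes. In sim against the same null libraries, 5 were higher and 5 lower, beside 13.9% and 20.8%. The shares of members called thus lay near the shares of all genes in WT and in sim, and below them in rvWT for higher calls. The median member difference was 0.09 in WT, 0.02 in rvWT and 0.03 in sim, against 0.07, -0.03 and -0.02 for all genes.

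WT and rvWT share the property of expressing wild-type Arkadia and were each set against their own null libraries. Wwp2 and Smurf2 were called higher in both, 2 of 29 members, beside 6.9% of 10662 genes. Nedd4l, Wwp1 and Uba2 were called lower in both, 3 of 29 members, beside 10.7%. No member was called in opposite directions. Both comparisons use the same null line, so a change of that line would enter each of them, and rvWT and sim were compared with the same 2 null libraries. In set A all 4 WT values lay above all 4 null values for 9 members, beside 32.3% of genes, and below them for 8 members, beside 24.9%.

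**Figure D1:**
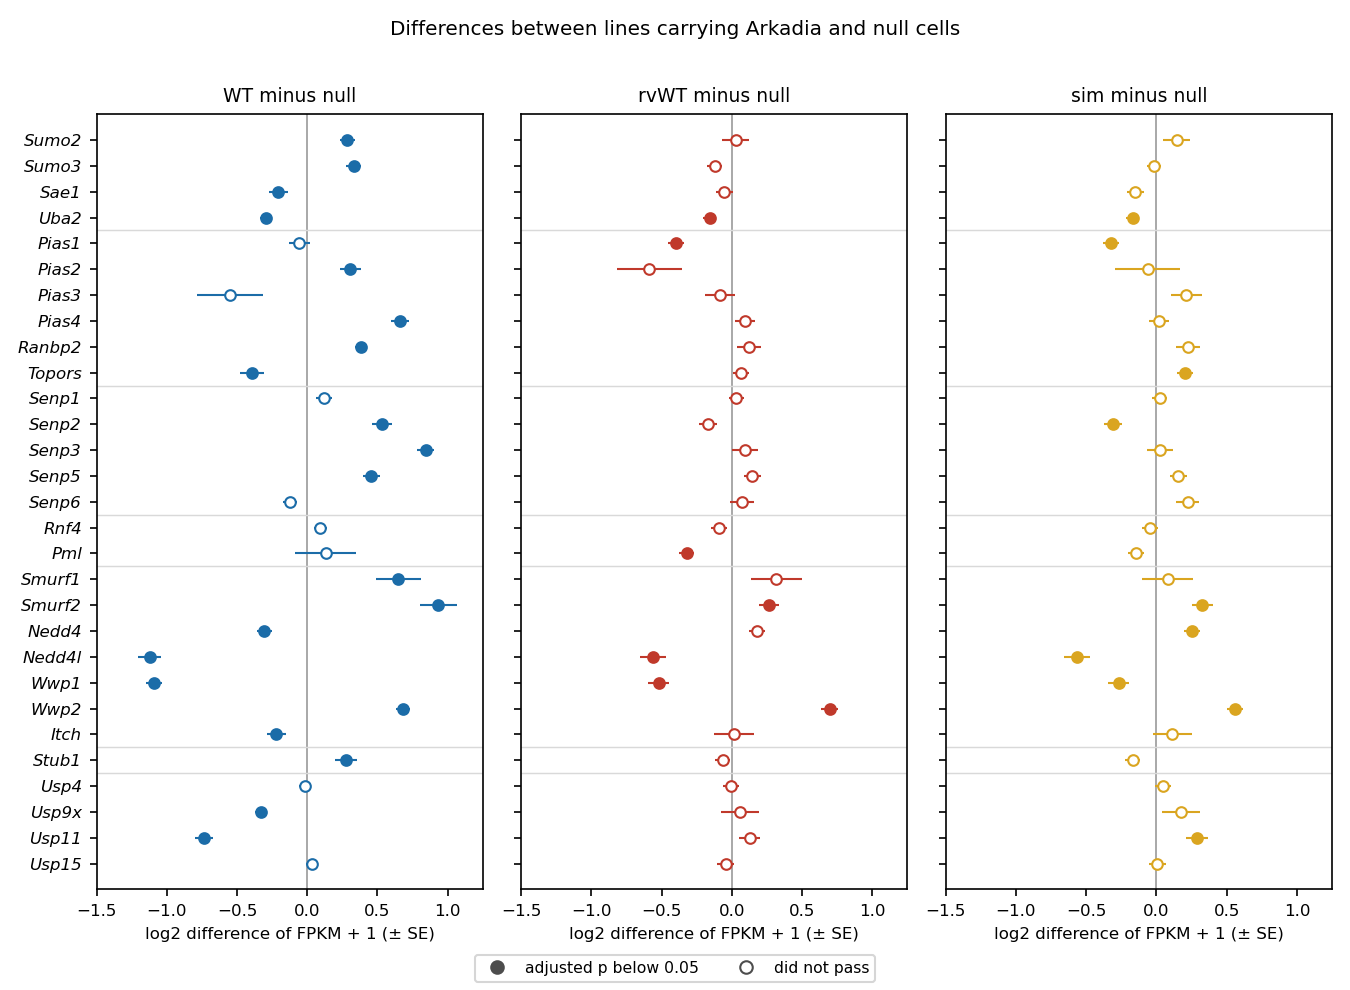
Differences of the 29 members between each Arkadia-expressing line and null cells, on the log2(FPKM + 1) scale (x axis), with points for limma estimates, bars for ± SE and filled points for an adjusted p below 0.05. Members are ordered by role. Wwp2 lies at 0.68, 0.70 and 0.56 in WT, rvWT and sim, Nedd4l at -1.12, -0.56 and -0.56, and Senp2, Senp3 and Senp5 lie at 0.53, 0.84 and 0.46 in WT.

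The largest member differences, in either direction, were those of HECT ligases in WT (Nedd4l, Wwp1 and Smurf2). All 7 were called in WT, 3 higher and 4 lower, beside 7411 of 10976 genes called either way. In rvWT 4 were called, beside 4230 of 10958 genes, and in sim 5, beside 3807. Smurf1 and Smurf2 bind SMAD7 and ubiquitinate the TGFβ receptors and SMADs, Nedd4l acts on phosphorylated SMAD2 and SMAD3, and Wwp1 and Wwp2 are sister ligases of the same family.

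Wwp2 stood at 18.9, 21.9, 20.0 and 20.0 FPKM in WT and at 12.1, 12.4, 12.2 and 12.1 in null of set A. In set B it stood at 10.3 and 11.0 in null, at 16.6, 18.9 and 22.0 in rvWT and at 14.9, 17.8 and 19.1 in sim. Every library with Arkadia was above every null library of either set. The differences were 0.68 ± 0.05 in WT (limma adjusted p = 0.000255), 0.70 ± 0.06 in rvWT (adjusted p = 0.000881) and 0.56 ± 0.06 in sim (adjusted p = 0.00206).

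Wwp1 moved the other way. It stood at 6.55, 6.39, 6.01 and 6.55 FPKM in WT and at 15.6, 15.5, 14.2 and 13.6 in null of set A. In set B it stood at 13.9 and 13.7 in null, at 10.0, 8.94 and 5.88 in rvWT and at 11.8, 10.3 and 7.86 in sim. No library with Arkadia reached the level of a null library. Wwp1 was lower by limma in WT (-1.09 ± 0.06, adjusted p = 0.000112), in rvWT (-0.52 ± 0.07, adjusted p = 0.00447) and in sim (-0.27 ± 0.07, adjusted p = 0.0412). With null 1 h of set B left out the rvWT difference was -0.44 and not called, and the sim call was lost in 6 of 8 such omissions, at -0.35 to -0.19, and under median-ratio and quantile scaling. As a description with no test, the ratio of Wwp1 to Wwp2 in FPKM ran from 0.292 to 0.348 in WT, from 1.13 to 1.30 in null of set A, from 1.24 to 1.35 in null of set B, from 0.268 to 0.607 in rvWT and from 0.411 to 0.793 in sim. Wwp1 was thus above Wwp2 in the 6 null libraries and below it in the 10 others.

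Nedd4l was lower in the same lines. Its values were 2.66, 3.26, 2.80 and 2.94 FPKM in WT against 8.11, 8.15, 7.36 and 6.50 in null of set A. In set B they were 7.65 and 8.76 in null, 5.29, 4.88 and 4.84 in rvWT and 5.38, 5.33 and 4.32 in sim. WT was lowest, rvWT and sim were intermediate and null was highest, with no overlap between those 3 levels. The differences were -1.12 ± 0.08 in WT (limma adjusted p = 0.000232), -0.56 ± 0.09 in rvWT (adjusted p = 0.00762) and -0.56 ± 0.09 in sim (adjusted p = 0.00843). Omitting null 1 h of set B ended the calls in rvWT and sim, with values of -0.45 in each.

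Nedd4 itself, far more abundant, stood at 264, 253, 234 and 242 FPKM in WT and at 329, 323, 313 and 267 in null of set A. In set B it stood at 312 and 314 in null, 371, 348 and 286 in rvWT and 371, 364 and 319 in sim. It was lower in WT (-0.31 ± 0.05, limma adjusted p = 0.00444) and higher in sim (0.25 ± 0.06, adjusted p = 0.0237), and the difference of 0.18 in rvWT was not called (adjusted p = 0.06). The sim call was lost in 5 of 8 omissions of a library, at 0.22 to 0.29.

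Smurf2 was the member with the largest excess in WT. It stood at 39.0, 44.4, 38.6 and 37.5 FPKM in WT and at 15.7, 19.1, 24.4 and 23.4 in null of set A. In set B it stood at 14.0 and 18.6 in null, 17.4, 22.8 and 20.3 in rvWT and 18.5, 21.7 and 23.2 in sim. WT lay above every other library, while rvWT and sim overlapped with null over the whole series and were above null of set B at 0 and 1 h. The differences were 0.93 ± 0.13 in WT (limma adjusted p = 0.00188), 0.26 ± 0.07 in rvWT (adjusted p = 0.0383) and 0.33 ± 0.07 in sim (adjusted p = 0.0212). Leaving out 1 library ended the rvWT call in 5 of 8 cases, at 0.21 to 0.31, and the sim call in 3 of 8, at 0.28 to 0.37.

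Smurf1 stood at 16.6, 25.3, 31.2 and 23.8 FPKM in WT and at 13.1, 10.2, 19.1 and 18.1 in null of set A. At each time WT was higher, although the WT library at 0 h lay below the null libraries at 4 and 16 h. In set B Smurf1 stood at 7.02 and 17.0 in null, 11.5, 17.3 and 23.8 in rvWT and 10.0, 13.4 and 20.9 in sim. It was higher in WT (0.65 ± 0.16, limma adjusted p = 0.0158), and the values in rvWT (0.32, adjusted p = 0.221) and sim (0.08, adjusted p = 0.759) were not called. The WT call was lost without WT 4 h or without null 4 h, at 0.64 each, and, in an alternative chosen after seeing the data, with null of both sets at 0 and 1 h, at 0.81. That alternative, used for other members too, has no term for the set, so differences between the null sets enter its WT value and its scatter. Null of set B was below null of set A by 0.82 at 0 h and above it by 0.68 at 1 h. Itch, another ligase of the family, was lower in WT by limma (-0.22, adjusted p = 0.032) and not called in rvWT (0.02) or sim (0.11). Itch stood at 11.4, 10.4, 10.0 and 10.8 FPKM in WT, which was below null of set A (11.7 to 14.1) and above null of set B (8.53 to 9.49). Its WT call was lost in 6 of 8 omissions, at -0.25 to -0.16, and with null of both sets at 0 and 1 h the difference was -0.0052 and not called.

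**Figure D2:**
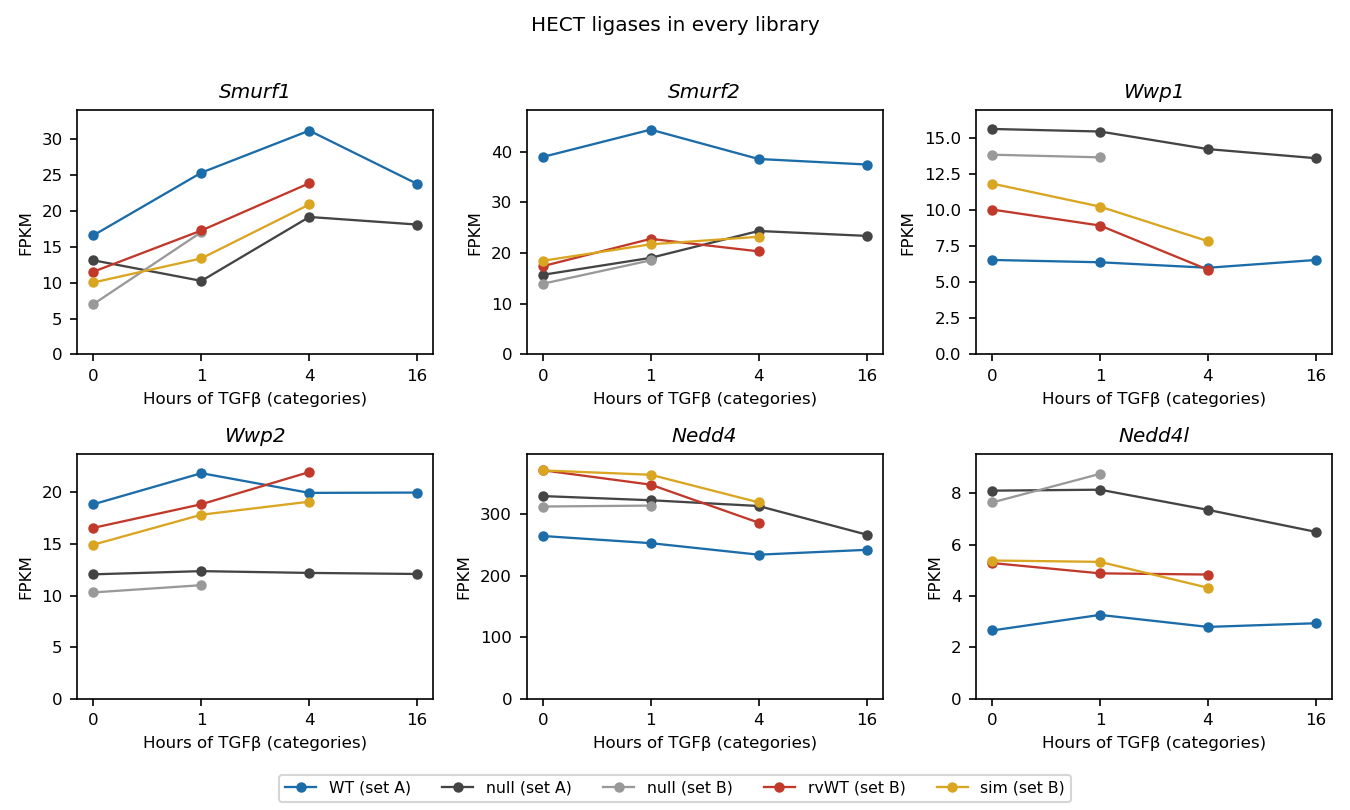
FPKM (y axis, from 0) of 6 HECT ligases in each of the 16 libraries by hours of TGFβ (x axis, equally spaced categories); each point is 1 library and lines join a series. Wwp2 is above and Wwp1 and Nedd4l are below all null libraries in every Arkadia-expressing series, and Smurf2 is highest in WT at 37.5 to 44.4 FPKM.

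The promoters of Smurf1, Smurf2 and Wwp2 are printed because the SMURF pair was called higher at 4 h of TGFβ and Wwp2 was higher in each line with Arkadia. The 4 h call of Smurf2 was lost in 9 of 16 omissions, and Smurf2 did not rise in WT by 4 h. They come from RefSeq in build GRCm38.p6, not the mm9 build of the expression table, and cover 250 bases before to 50 after the annotated start, on the gene's strand from 5′ to 3′. Smurf1 lies on the minus strand at chr5:144965781-144966080, Smurf2 on the minus strand at chr11:106920666-106920965 and Wwp2 on the plus strand at chr8:107436120-107436419. Capitals mark the SMAD box CAGAC on either strand, or the E-box CACGTG, which is its own reverse complement.
Smurf1: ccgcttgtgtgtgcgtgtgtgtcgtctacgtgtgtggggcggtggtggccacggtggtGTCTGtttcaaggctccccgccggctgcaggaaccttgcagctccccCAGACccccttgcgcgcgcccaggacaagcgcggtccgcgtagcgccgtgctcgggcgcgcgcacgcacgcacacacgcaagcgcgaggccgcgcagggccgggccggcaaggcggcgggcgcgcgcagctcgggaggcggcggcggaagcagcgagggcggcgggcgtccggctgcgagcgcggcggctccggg
Smurf2: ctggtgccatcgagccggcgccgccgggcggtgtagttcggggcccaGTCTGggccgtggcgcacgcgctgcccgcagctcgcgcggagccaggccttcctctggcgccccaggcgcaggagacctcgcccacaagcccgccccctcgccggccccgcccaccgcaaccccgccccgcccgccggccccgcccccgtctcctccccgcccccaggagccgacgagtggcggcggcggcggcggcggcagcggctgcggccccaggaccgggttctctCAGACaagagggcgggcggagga
Wwp2: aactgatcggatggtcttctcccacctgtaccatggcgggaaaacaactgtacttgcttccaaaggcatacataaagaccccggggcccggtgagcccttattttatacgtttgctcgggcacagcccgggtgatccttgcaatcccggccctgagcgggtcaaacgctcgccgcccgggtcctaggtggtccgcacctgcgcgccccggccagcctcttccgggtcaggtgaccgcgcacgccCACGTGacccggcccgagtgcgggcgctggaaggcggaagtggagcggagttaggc
The Smurf1 and Smurf2 windows each hold 2 SMAD boxes and no E-box, and the Wwp2 window holds 1 E-box and no SMAD box. Promoters were matched for 23 of the 30 listed members, with 33 windows, and were compared with all 32851 windows of that length. SMAD boxes occurred in 13 of the 33 member windows (39.4%) and in 49.6% of all, and the E-box in 4 (12.1%) and in 7.15% of all. The median share of G and C bases was 63.3% in member windows and 52.7% in all, and the motif shares were not adjusted for it. The core of the interferon-stimulated response element and the SMAD palindrome GTCTAGAC, both searched on each strand, were in 0 of the 33 member windows and in 3.44% and 0.213% of all. A SMAD box overlaps the palindrome in part, and these matches describe letters and not bound sites.

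The U-box ligase Stub1, a chaperone-linked ligase that also acts on SMADs, was at 54.3, 58.4, 55.8 and 50.1 FPKM in WT and 53.0, 48.2, 44.7 and 35.7 in null of set A. In null of set B it was at 70.3 and 67.6, above every WT library. The call of higher in WT (0.27 ± 0.08, limma adjusted p = 0.0253) was lost in 6 of 8 omissions, at 0.21 to 0.28. With the null libraries of both sets at 0 and 1 h the difference was -0.07 and not called. In rvWT (-0.07) and sim (-0.17) no call was made.

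Among the deubiquitinases, Usp4, Usp11 and Usp15 act on TGFβ receptors or SMADs and Usp9x removes ubiquitin from SMAD4. Usp11 stood at 2.64, 2.37, 2.38 and 2.60 FPKM in WT against 5.27, 4.88, 4.29 and 4.86 in null of set A. In set B it stood at 6.58 and 6.29 in null, 7.65, 6.70 and 5.47 in rvWT and 7.74, 8.31 and 6.40 in sim. WT was lowest with no overlap. Usp11 was lower in WT by limma (-0.73 ± 0.07, adjusted p = 0.000432) and higher in sim (0.29 ± 0.08, adjusted p = 0.0377), while rvWT gave 0.13 (adjusted p = 0.244). The sim call was lost in 7 of 8 omissions, at 0.23 to 0.30.

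Usp9x ran from 24.4 to 27.2 FPKM in WT and from 29.3 to 35.2 in null of set A, a difference of -0.33 ± 0.05 (limma adjusted p = 0.00181). Null of set B was at 21.0 and 23.6 FPKM, below WT, so this call depends on which null libraries are used. With those of both sets at 0 and 1 h, and no term for the set, the value was -0.08 and not called. Usp4 (-0.01, adjusted p = 0.806) and Usp15 (0.04, adjusted p = 0.49) were not called in WT, nor in rvWT or sim. Usp4 ran from 32.1 to 37.9 FPKM over all libraries and Usp15 from 27.6 to 38.7.

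**Figure D3:**
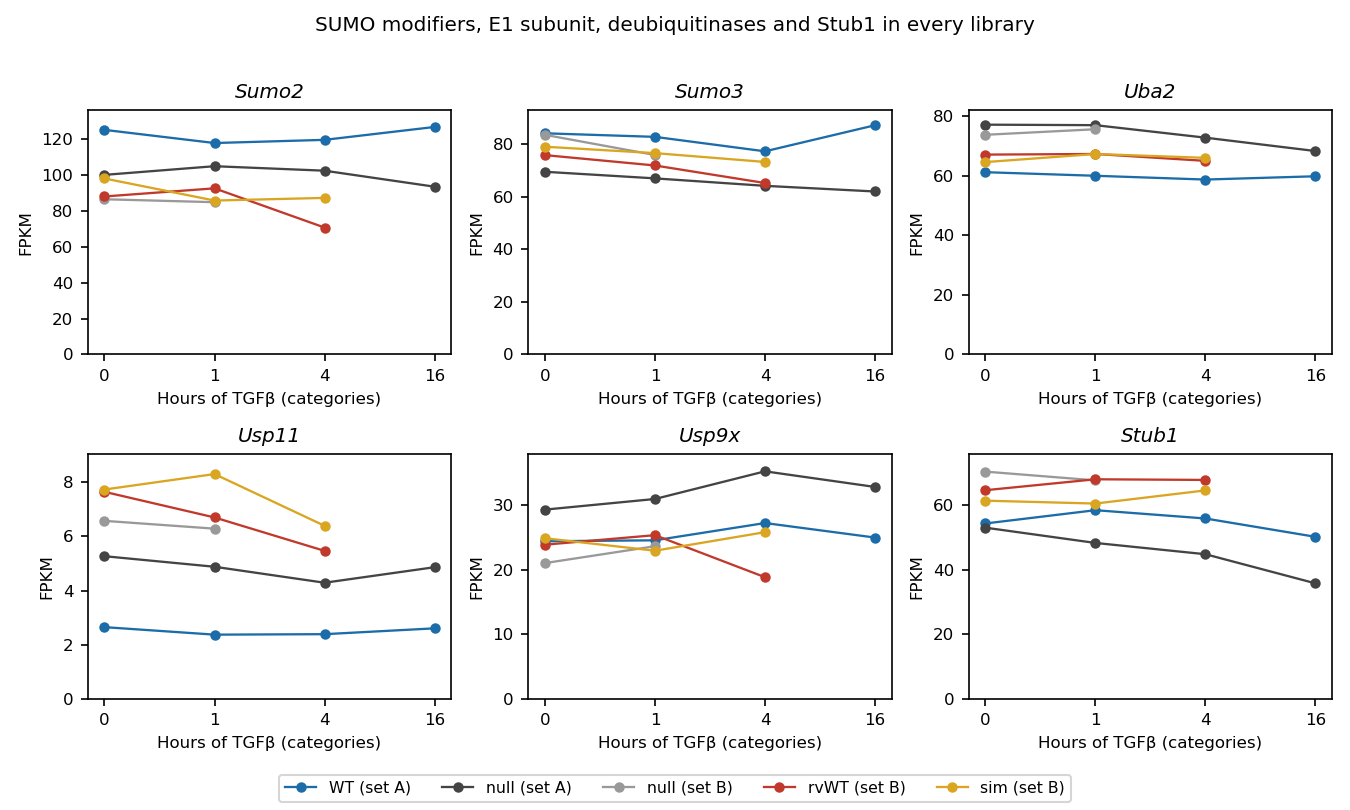
FPKM (y axis, from 0) of 2 SUMO modifiers, the E1 subunit Uba2, 2 deubiquitinases and Stub1 in each of the 16 libraries by hours of TGFβ (x axis, equally spaced categories); each point is 1 library and lines join a series. Usp11 is lowest in WT at 2.37 to 2.64 FPKM, and the null libraries of the separate sets lie apart for Usp9x and Stub1.

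Turning to SUMO itself, the 2 modifiers and the 2 subunits of the activating enzyme differed in opposite directions in WT. Sumo2 stood at 125, 118, 119.6 and 127 FPKM in WT and 100.1, 105, 102 and 93.5 in null of set A. Sumo3, whose mature protein is nearly identical to that of Sumo2, stood at 84.1, 82.8, 77.3 and 87.2 in WT and 69.5, 67.0, 64.1 and 62.0 in null of set A. Neither overlapped, and both were higher in WT by limma (Sumo2 0.29 ± 0.06, adjusted p = 0.0065, and Sumo3 0.33 ± 0.05, adjusted p = 0.00308). Reads of Sumo2 may be shared with processed copies of the gene, so its level is uncertain.

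In set B, Sumo2 stood at 86.5 and 84.9 FPKM in null, 88.0, 92.6 and 70.7 in rvWT and 98.1, 85.8 and 87.3 in sim. Sumo3 stood at 83.5 and 75.8 in null, 75.8, 71.9 and 65.2 in rvWT and 79.0, 76.6 and 73.2 in sim. The lines overlapped, and neither modifier was called in rvWT (0.03 and -0.12) or sim (0.14 and -0.02). With null of both sets at 0 and 1 h, the WT differences were 0.37 for Sumo2 and 0.18 for Sumo3 and were not called. The ratio of Sumo2 to Sumo3, a description with no test, ran from 1.42 to 1.60 in the 8 libraries of set A and from 1.04 to 1.29 in the 8 of set B, with WT and null together in the first and all 3 lines together in the second.

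Uba2, the catalytic subunit of the SUMO-activating enzyme, ran from 58.8 to 61.3 FPKM in WT and from 68.4 to 77.2 in null of set A. It was at 73.8 and 75.7 in null of set B, 65.1 to 67.4 in rvWT and 64.7 to 67.4 in sim, so every library with Arkadia was below every null library. Uba2 was lower by limma in WT (-0.29 ± 0.05, adjusted p = 0.00272), rvWT (-0.16 ± 0.04, adjusted p = 0.0413) and sim (-0.17 ± 0.04, adjusted p = 0.037). The rvWT call was lost in each of the 8 omissions, at -0.18 to -0.15, and the sim call in 6 of 8, at -0.17 to -0.15, and both were lost under median-ratio and quantile scaling. Its partner Sae1 was lower in WT (-0.21 ± 0.07, adjusted p = 0.0427), a call lost in 6 of 8 omissions at -0.20 to -0.16, and was not called in rvWT (-0.05) or sim (-0.15).

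Of the 6 SUMO ligases, Pias4, Pias2 and Ranbp2 were higher and Topors lower in WT, beside 37.4% and 30.1% of all genes. Pias4, a ligase of the nucleus that binds SMADs, stood at 16.2, 16.4, 17.7 and 16.8 FPKM in WT and 11.2, 9.96, 10.1 and 9.66 in null of set A. The groups did not overlap and the difference was 0.66 ± 0.06 (limma adjusted p = 0.000543). In set B, however, null stood at 15.2 and 14.6, rvWT at 14.8, 16.7 and 17.6 and sim at 15.6, 15.0 and 16.0. These overlapped, rvWT (0.09) and sim (0.02) were not called, and with null of both sets the WT difference was 0.35 and not called.

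Ranbp2, the SUMO ligase of the nuclear pore, ran from 41.2 to 45.0 FPKM in WT and from 31.8 to 33.8 in null of set A, a difference of 0.38 ± 0.04 (limma adjusted p = 0.000679). Null of set B was lower still at 25.9 and 26.6, and the values of 0.12 in rvWT and 0.23 in sim were not called. Topors, which can ligate either SUMO or ubiquitin, was lower in WT (-0.39 ± 0.08, adjusted p = 0.00876) and higher in sim (0.20 ± 0.06, adjusted p = 0.0453), and gave 0.07 in rvWT without a call. The sim call of Topors was lost in 6 of 8 omissions, at 0.16 to 0.24, and the WT value with null of both sets was -0.37 and not called.

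The other PIAS genes were less steady. Pias1, a ligase of transcription factors, stood at 12.1 and 11.7 FPKM in null of set B, 9.27, 8.44 and 6.36 in rvWT and 9.35, 8.96 and 7.08 in sim, with no overlap. It was lower by limma in rvWT (-0.40 ± 0.06, adjusted p = 0.00461) and sim (-0.33 ± 0.06, adjusted p = 0.0102). In set A it stood at 10.9, 10.3, 8.70 and 9.41 in WT and 11.3, 11.5, 9.95 and 8.36 in null, which overlapped (-0.06, not called). With null 1 h of set B left out the rvWT call of Pias1 was lost at -0.38, and the sim call was lost in 3 of 8 omissions at -0.35 to -0.30. Pias2 was higher in WT (0.31 ± 0.08, adjusted p = 0.0165), a call lost in 4 of 8 omissions at 0.26, and was not called in rvWT (-0.59, with a single low library of 3.39 FPKM at 0 h) or sim (-0.06). Pias3 was not called in any line (-0.55 in WT, -0.08 in rvWT and 0.21 in sim), but with null of both sets at 0 and 1 h it was called lower in WT, at -0.82.

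Of the SUMO proteases, Senp2, Senp3 and Senp5 were higher in WT and Senp1 and Senp6 not called, beside 37.4% of all genes called higher and 30.1% called lower. Senp3, which removes SUMO2 and SUMO3 in the nucleolus, stood at 59.0, 51.3, 53.8 and 51.0 FPKM in WT and 29.4, 29.3, 28.4 and 30.8 in null of set A. The groups lay far apart, and the difference was 0.84 ± 0.06 (limma adjusted p = 0.000213). In set B, Senp3 stood at 31.1 and 33.7 in null, 34.6, 32.5 and 45.1 in rvWT and 32.7, 35.7 and 37.8 in sim, which overlapped, and it was not called in rvWT (0.09) or sim (0.03).

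Senp5, the other nucleolar protease, ran from 17.8 to 21.2 FPKM in WT and 12.6 to 16.4 in null of set A (0.46 ± 0.06, limma adjusted p = 0.00149). Its values of 0.15 in rvWT and 0.16 in sim were not called. Senp2, a protease found at the nuclear pore, stood at 19.9, 15.7, 20.9 and 17.5 FPKM in WT and 14.6, 11.5, 12.2 and 11.7 in null of set A, a difference of 0.53 ± 0.07 (adjusted p = 0.00158). It went the other way in sim, where it was lower than null of set B (-0.31 ± 0.07, adjusted p = 0.019), while rvWT gave -0.17 (adjusted p = 0.1). The sim call of Senp2 was lost in 4 of 8 omissions, at -0.34 to -0.26. Senp1, which acts on all SUMO forms, gave 0.12 in WT, 0.03 in rvWT and 0.02 in sim, and Senp6, which trims SUMO chains, gave -0.12, 0.07 and 0.22, all without a call.

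**Figure D4:**
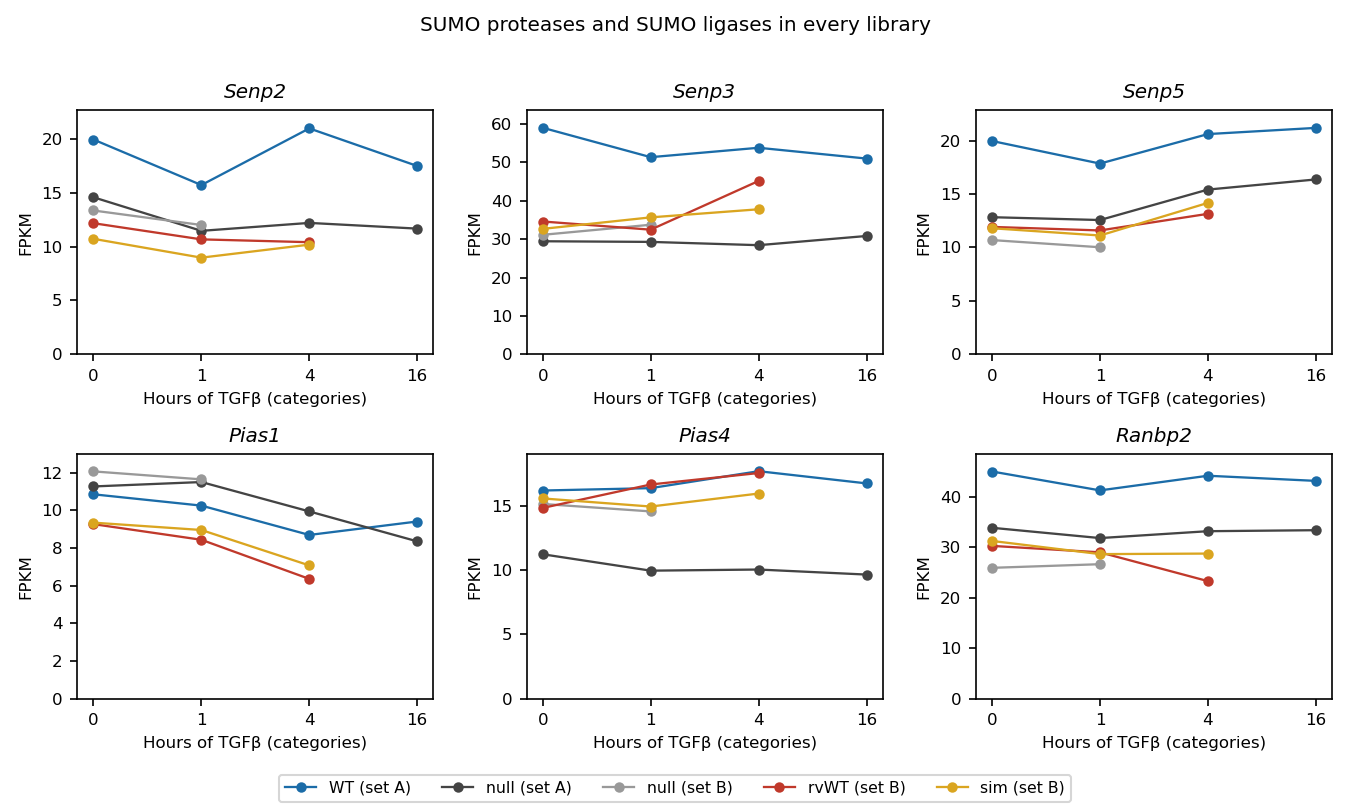
FPKM (y axis, from 0) of 3 SUMO proteases and 3 SUMO ligases in each of the 16 libraries by hours of TGFβ (x axis, equally spaced categories); each point is 1 library and lines join a series. Senp3 is at 51.0 to 59.0 FPKM in WT and 28.4 to 45.1 elsewhere, and Pias4 is at 9.66 to 11.2 in null of set A and at 14.6 or more in the other libraries.

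Rnf4, the other SUMO-targeted ubiquitin ligase, differed little between lines. It stood at 61.1, 56.6, 66.3 and 67.6 FPKM in WT and 57.2, 56.9, 58.5 and 62.7 in null of set A. In set B it stood at 57.9 and 56.9 in null, 52.8, 52.7 and 61.1 in rvWT and 57.3, 56.1 and 58.7 in sim. The lines overlapped and no call was made in WT (0.09 ± 0.05, limma adjusted p = 0.127), rvWT (-0.09 ± 0.06, adjusted p = 0.259) or sim (-0.04 ± 0.06, adjusted p = 0.59). The 95% intervals ran from -0.02 to 0.21 in WT, from -0.24 to 0.05 in rvWT and from -0.19 to 0.10 in sim, so differences within those bounds are not excluded.

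Pml, the scaffold of nuclear bodies to which Rnf4 and other SUMO readers are drawn and a gene known to be induced by interferon, stood at 10.3, 13.4, 10.9 and 12.7 FPKM in WT and 14.0, 13.7, 10.7 and 6.18 in null of set A. In set B it stood at 16.9 and 14.4 in null, 13.2, 11.3 and 8.06 in rvWT and 14.6, 13.6 and 9.12 in sim. The WT and null values overlapped (0.13 ± 0.22, limma adjusted p = 0.618). Pml was lower in rvWT (-0.32 ± 0.06, adjusted p = 0.00883) and not called in sim (-0.14, adjusted p = 0.101). The rvWT call was lost in 3 of 8 omissions, at -0.36 to -0.29. Interferon-response genes stood the other way in the same libraries. In rvWT, 12 of 15 tested were called higher and 0 lower, beside 16% and 22.6% of all genes. In sim, 14 of 15 were called higher and 0 lower, beside 13.9% and 20.8%. The medians were 0.88 in rvWT and 1.13 in sim. In WT, 1 of 12 was higher and 9 lower, beside 37.4% and 30.1% of all genes. Of the list, Ifit1, Ifit3, Oas1a and Sp100 were at most 0.093, 0.303, 0.119 and 0.629 FPKM in WT. They met the required mean of 1 FPKM only through null, so they could only come out lower in WT. The part of interferon-response genes in the level of Pml was not tested.

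The sim mutant was compared directly with wild-type Arkadia in the same virus. By limma, 0 members were called higher and 0 lower, beside 0.137% and 0.356% of 10958 genes. At an unadjusted p below 0.05 there were 6 members and 1818 of all genes. Those 6 were Wwp1 (-0.25, 95% interval -0.41 to -0.09), Pml (-0.18, interval -0.30 to -0.06), Pias3 (-0.30, interval -0.53 to -0.06), Pias2 (-0.52, interval -1.03 to -0.02), Topors (-0.14, interval -0.26 to -0.01) and Wwp2 (0.14, interval 0.01 to 0.26), named after their values were seen. The smallest adjusted p was that of Wwp1, 0.178. For Nedd4l the interval ran from -0.20 to 0.20 around 0.00 and for Smurf2 from -0.22 to 0.09 around -0.07, which leaves room for differences of those sizes. Rnf111 itself was lower in sim (56.0 to 62.1 FPKM) than in rvWT (102.5 to 125.8), so dose and mutation cannot be told apart.

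TGFβ responses were estimated over all 16 libraries with the 5 time series as a block. At 1 h, 0 members were higher and 2 lower, beside 3.95% and 2.01% of 11045 genes. At 4 h, 4 were higher and 6 lower, beside 11.9% and 27.1%. At 16 h, which only WT and null of set A reached, 1 was higher and 4 lower, beside 6.84% and 12.5%. At an unadjusted p below 0.05, 6, 13 and 9 of 29 members passed at 1, 4 and 16 h, beside 1970, 5490 and 3858 of 11045 genes, which are like shares. With set A alone, 0 of the 29 were called at any time. Over all 10976 genes, that fit called 9 higher and 3 lower at 1 h and 13 and 3 at 4 h. At 16 h it called 121 and 124. With set B alone, of the same number of libraries, 1398 of 10958 genes were called higher and 2868 lower at 4 h. Median-ratio scaling ended both calls at 1 h, those of Sumo3, Nedd4 and Usp15 at 4 h and those of Nedd4 and Stub1 at 16 h, and quantile normalization ended that of Usp11 at 4 h.

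Smurf1 had the largest response at 4 h, 0.93 ± 0.17 (limma adjusted p = 0.00303). It rose in 4 of 4 series from 0 to 4 h: from 16.6 to 31.2 FPKM in WT, from 13.1 to 19.1 in null, from 11.5 to 23.8 in rvWT and from 10.0 to 20.9 in sim. At 1 h it was above 0 h in 4 of 5 series and below it in null of set A (13.1 to 10.2), and the value of 0.47 ± 0.16 was not called (adjusted p = 0.131). The 16 h value of 0.66 ± 0.23 was not called either (adjusted p = 0.0653), with both series above their 0 h library.

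Smurf2 was called higher at 4 h (0.29 ± 0.10, limma adjusted p = 0.0377), with 3 of 4 series up and WT at 39.0 and then 38.6 FPKM. At 1 h it was up in 5 of 5 series by 0.18 to 0.39, without a call (0.29, adjusted p = 0.101). The 4 h call was lost in 9 of 16 omissions, at 0.21 to 0.33. Wwp2 was also called higher at 4 h (0.20 ± 0.06, adjusted p = 0.0321), a call lost in 5 of 16 omissions at 0.14 to 0.20. It went from 16.6 to 22.0 FPKM in rvWT and from 14.9 to 19.1 in sim, but only from 12.1 to 12.2 in null of set A and from 18.9 to 20.0 in WT, and set A alone gave 0.046 without a call.

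Wwp1 and Nedd4 fell at 4 h. Wwp1 was lower in 4 of 4 series by 0.11 to 0.68 (-0.36 ± 0.09, limma adjusted p = 0.0124), the largest falls being those of rvWT (10.0 to 5.88 FPKM) and sim (11.8 to 7.86), and without sim 4 h the value was -0.31 and not called. Nedd4 fell in 4 of 4 series (-0.20 ± 0.05, adjusted p = 0.0135) and again at 16 h (-0.24 ± 0.07, adjusted p = 0.0344), where the call was lost in 9 of 16 omissions at -0.26 to -0.13. Its 4 h value without rvWT 0 h was -0.17 and not called. Nedd4l (-0.10 at 4 h) and Itch (-0.09) were not called at any time.

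Among the SUMO genes, Pias1 had the largest fall called at 4 h. It was lower at 4 h in 4 of 4 series (-0.32 ± 0.06, limma adjusted p = 0.00319). The falls were from 10.9 to 8.70 FPKM in WT, from 11.3 to 9.95 in null, from 9.27 to 6.36 in rvWT and from 9.35 to 7.08 in sim. At 16 h it was lower in 2 of 2 series (-0.33 ± 0.08, adjusted p = 0.0168). The 16 h call of Pias1 was lost without null 16 h, at -0.19. Senp5 was higher at 4 h in 4 of 4 series (0.17 ± 0.05, adjusted p = 0.0186) and at 16 h in 2 of 2 (0.22 ± 0.06, adjusted p = 0.031), calls lost in 4 of 16 omissions at 0.14 to 0.17 and in 7 of 16 at 0.15 to 0.22. Sumo3 fell slightly at 4 h in 4 of 4 series (-0.15 ± 0.04, adjusted p = 0.0191, lost in 3 of 16 omissions at -0.14 to -0.13), and Sumo2 did not pass (-0.13, adjusted p = 0.164).

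At 1 h the 2 members called were Topors (-0.25 ± 0.06, limma adjusted p = 0.0415) and Senp2 (-0.24 ± 0.06, adjusted p = 0.035), each lower in 5 of 5 series. Leaving out 1 library ended the call of Topors in 12 of 16 cases, at -0.27 to -0.20, and that of Senp2 in 10 of 16, at -0.26 to -0.20. Neither was called at 4 h (-0.18 and -0.10). The call of Pias3 at 16 h (-1.0 ± 0.23, adjusted p = 0.0151) rested on WT at 16 h, where Pias3 was at 0.867 FPKM after 3.56, 3.81 and 5.79, and without that library the value was -0.55 and not called.

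Of the deubiquitinases, Usp11 (-0.25 ± 0.06, limma adjusted p = 0.0109) and Usp15 (-0.13 ± 0.04, adjusted p = 0.0219) fell at 4 h in 4 of 4 series, and Usp4 and Usp9x were not called at any time. The Usp15 call was lost in 2 of 16 omissions, at -0.12 to -0.10. Stub1 fell at 16 h in 2 of 2 series (-0.31 ± 0.08, adjusted p = 0.0265), mostly in null (53.0 to 35.7 FPKM), and the call was lost without null 0 h of set A or null 16 h, at -0.22 to -0.17. Rnf4 (0.10 at 4 h and 0.15 at 16 h) and Pml (-0.41 and -0.55) were not called. Uba2, Sae1, Pias2, Pias4, Ranbp2, Senp1, Senp3 and Senp6 were called at none of the times.

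**Figure D5:**
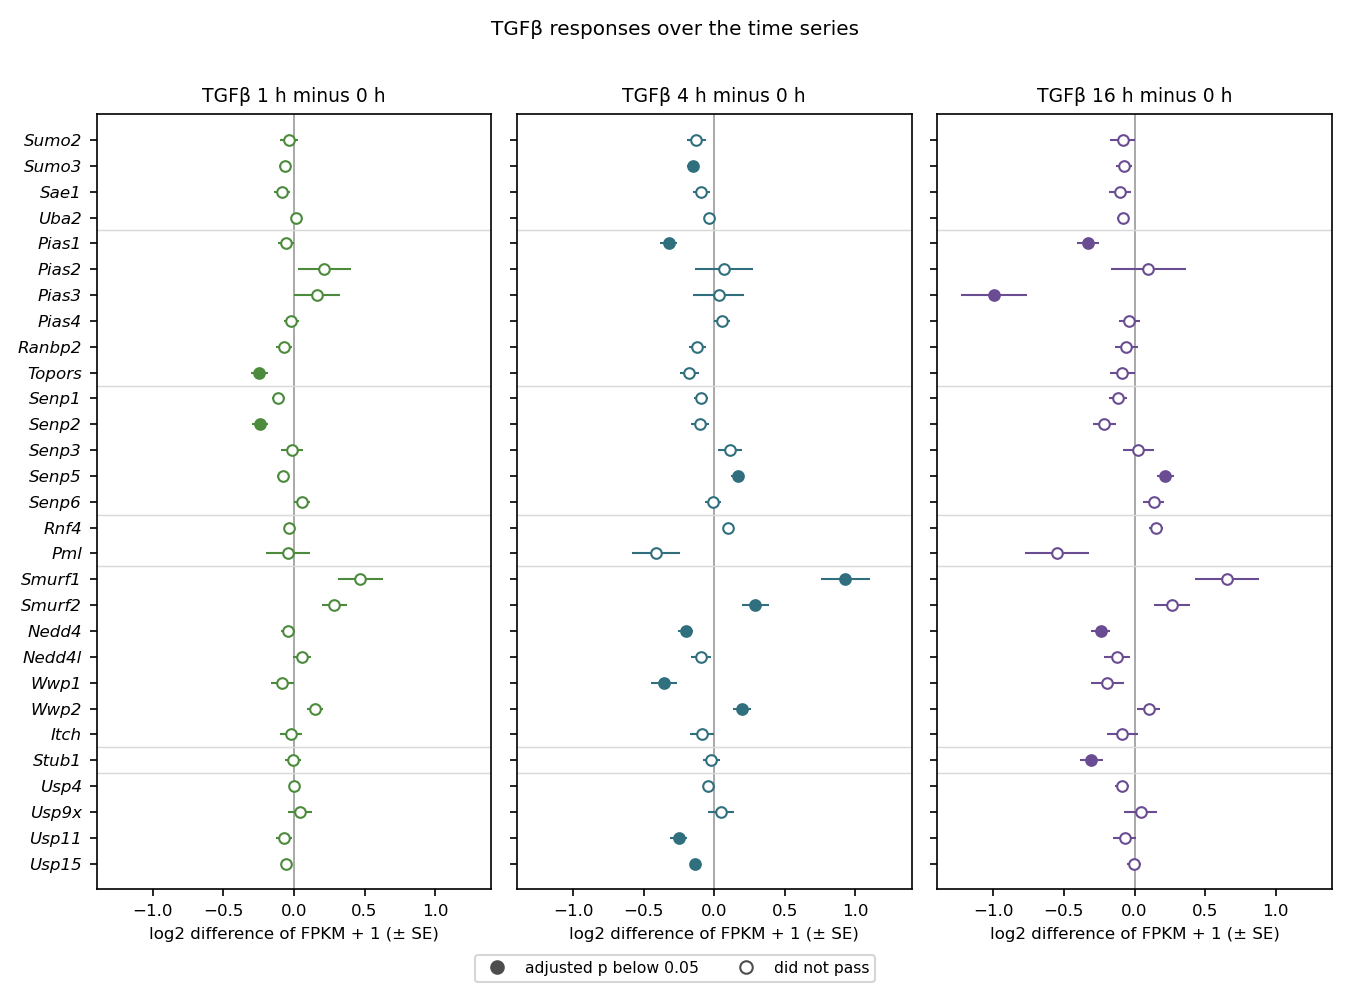
Responses of the 29 members to 1, 4 and 16 h of TGFβ, on the log2(FPKM + 1) scale (x axis), with points for limma estimates over the time series, bars for ± SE and filled points for an adjusted p below 0.05. Smurf1 reaches 0.93 at 4 h, Pias1 lies at -0.32 and -0.33 at 4 and 16 h, and Pias3 at 16 h (-1.0) rests on 1 library.

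Whether responses differed by Arkadia status was tested with treatment-by-status terms, which share their 0 h libraries. The 16 h term compares WT with null of set A alone, 1 library each, since rvWT has no 16 h library. At 4 h null has 1 library, that of set A, so each 4 h term rests on it. The 4 h terms thus set rvWT and sim of set B against null of set A. For WT and rvWT against null, 0 members were called at 1, 4 and 16 h, beside 0.0181%, 0.0634% and 0% of 11045 genes called either way. For sim against null, 0 members were called at 1 and 4 h, beside 0.00905% at each. At an unadjusted p below 0.05, 1, 3 and 4 of 29 members passed for Arkadia, beside 264, 970 and 1587 of 11045 genes, and 0 and 1 for sim, beside 374 and 774. Smurf2 had response differences of -0.53 ± 0.13 at 4 h (limma adjusted p = 0.535) and -0.56 ± 0.14 at 16 h (adjusted p = 0.204); it went from 15.7 to 24.4 FPKM in null of set A and from 39.0 to 38.6 in WT by 4 h. Pml had 1.17 ± 0.33 at 16 h (adjusted p = 0.232), with the null library at 6.18 FPKM. The 95% intervals were wide, from -0.86 to -0.21 for Smurf2 at 4 h, from 0.33 to 2.01 for Pml at 16 h and from -0.21 to 0.62 for Wwp2 at 4 h.

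Other genes of the same pathways were counted from lists. Of 14 further SUMO genes, 4 were higher and 4 lower in WT, 2 and 1 in rvWT and 3 and 1 in sim. These counts and those of the lists that follow stand beside 37.4% and 30.1% of all genes in WT, 16% and 22.6% in rvWT and 13.9% and 20.8% in sim, and the 8 of 14 called in WT are a smaller share than that of all genes. Zmiz1, a relative of the PIAS ligases, was higher in rvWT (0.72, limma adjusted p = 0.000754) and sim (0.56, adjusted p = 0.00193) and rose at 1, 4 and 16 h of TGFβ (0.27, 0.72 and 0.64). Sp100, a nuclear body partner of Pml that is also on the interferon list, was lower in WT (-2.43) and higher in sim (0.45). It stood at 0.38 to 0.63 FPKM in WT and entered the WT fit only through null. Desi2, Zmiz2 and Uspl1 were called in WT at -0.82, 0.66 and -0.52, and Rangap1, the best-known SUMO target of the nuclear pore, was lower in rvWT (-0.27) and sim (-0.39).

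Of 12 further ubiquitin regulators tested, 6 were higher and 4 lower in WT, 0 and 2 in rvWT and 0 and 2 in sim. Ndfip2, an adaptor that activates NEDD4-family ligases, was lower in WT (-0.72), rvWT (-0.78) and sim (-0.65), with limma adjusted p values of 0.000648, 0.00213 and 0.00437. It ran from 10.8 to 13.1 FPKM in WT, 18.9 to 22.4 in the null libraries, 11.6 to 13.6 in rvWT and 13.1 to 14.4 in sim, so no Arkadia library reached a null library. Otub1, a deubiquitinase that protects SMADs, was lower as well (-0.26, -0.50 and -0.46), with the latter 2 at adjusted p of 0.00467 and 0.00679. Of 10 genes that encode targets of these ligases, 3 were higher and 1 lower in WT, 0 and 4 in rvWT and 0 and 2 in sim, with Smad1 at -0.51 and -0.48 and Smad3 at -0.31 and -0.36 in rvWT and sim. With TGFβ, 4 of these 10 rose and 0 fell at 1 h, led by Smad7 (2.04) and Smad6 (1.94), the inhibitory SMADs, beside 3.95% and 2.01% of all genes. At 4 h 2 were higher and 3 lower, with Smad7 still higher (1.15) and Smad6 now lower (-0.43), and at 16 h 1 was higher and 1 lower.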

How the data were processed

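RNA-seq values of 16 mouse embryo fibroblast libraries were used. The authors deposited 1 table of FPKM values for 12100 genes, for which the submitters' processing notes name Cufflinks 2.2.1, STAR 2.3.0e, CASAVA 1.8.2, SAMtools and build mm9 without their roles. FPKM carries no read counts. For 355 genes with low values, ratios of WT 0 h to WT 1 h were matched to ratios of small whole numbers. At the best offset 107 matched within 0.006 log2, beside a median of 6 over all offsets. No depth was derived from this, so depth is unknown and precision rests on the scatter between libraries. Of the members, 9 are named as a transcript variant, so their value may be that of 1 isoform.

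Values were taken as log2(FPKM + 1), which understates changes of low genes, for genes averaging 1 FPKM or more over a fit, which all 29 members did. Differences were tested over all genes with limma 3.58.1 (trend, R 4.3.3, Benjamini-Hochberg, adjusted p below 0.05): WT against null in set A and rvWT, sim and null in set B, each with time as a block (3 residual degrees of freedom); TGFβ times over the 16 libraries with the 5 series as a block (8); and responses by status (3). In set B null has no 4 h library. Per-library values are given for members called at 0.5 log2 or more between lines or 0.3 or more with TGFβ and for Sumo2, Sumo3, Smurf1, Smurf2, Rnf4 and Pml; from each list of other genes up to 4 called genes per line comparison and up to 2 per TGFβ time were eligible to be named. The members and lists were chosen with earlier results of these data known. Promoters came from RefSeq (GRCm38.p6).

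Alternatives changed the pseudocount (0.1, 5), the filter (none, 5 FPKM), the scaling (quantile, median-ratio), the variance model (robust, no trend), the block, the sets used and the libraries, each of which was left out in turn. The fits were tested on simulated data with the same scatter for every gene, unlike the measured data. That scatter was a chosen fraction of the median standard deviation over libraries, not the residual scatter of a fit. Apart from the changes put in, no line or time differences were simulated. The recovery below depends on these settings and does not give the recovery in the measured data. Changes of 0.5 log2 were recovered in 95% of cases in WT, 96% in rvWT and 92% at 4 h of TGFβ. For the 4 h response by status the recovery was 4%, and 54% for changes of 1 log2, so small differences of response would be missed.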

Additional observations from a re-analysis of the deposited data

How the results depend on the processing

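The results for single members numbered 55. Over 1137 alternatives of them, 914 kept the call, 222 lost it and 1 was reversed (Stub1 in WT against null, -0.068 with the null libraries of both sets at 0 and 1 h, an alternative chosen after seeing the data). That alternative called 13 members in place of 21, beside 47.5% of 11065 genes. Without the time block, 2 members were called in rvWT against null and 2 in sim against null, in place of 7 and 10. Over all 10958 genes, that fit called 788 higher and 1412 lower in rvWT, in place of 1756 and 2474. In sim it called 575 and 1202, in place of 1528 and 2279. At 1 h of TGFβ the number called went from 2 to 0 with median-ratio scaling, with set A alone and with set B alone, and to 1 with the line in place of the time series. With set A alone it was 0 at 4 h and 0 at 16 h, and with the line in place of the series it was 2 at 16 h, in place of 10 and 5. Over all genes, the main fit called 436 higher and 222 lower at 1 h. Median-ratio scaling called 492 and 163, set A alone 9 and 3, and set B alone 372 and 89. At 4 h the main fit called 1317 and 2990. There set A alone called 13 and 3 and set B alone 1398 and 2868, with 8 libraries in each set. The line in place of the series called 323 and 110 at 1 h and 569 and 923 at 16 h, the latter in place of 755 and 1384. Leaving out 1 library gave 17 to 20 members called in WT, 2 to 7 in rvWT, 1 to 10 in sim, 0 to 2 at 1 h, 4 to 12 at 4 h and 1 to 6 at 16 h. The lowest counts in rvWT and sim came without null 1 h of set B, that at 4 h without rvWT 0 h and that at 16 h without null 16 h. Calls over all genes fell as well. Without rvWT 0 h they were 974 higher and 1621 lower in rvWT, in place of 1756 and 2474. At 4 h they were then 942 and 1798, in place of 1317 and 2990. Fits of 1 set or without a library hold fewer libraries, and the cause of these changes was not tested.

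Scaling moved the balance of higher and lower calls over all genes. In WT it was 3641 to 3622 with median-ratio scaling, in place of 4105 to 3306. With quantile normalization it was 2414 to 2035 in rvWT and 2143 to 1952 in sim, in place of 1756 to 2474 and 1528 to 2279. At 4 h it was 1900 to 1817 with median-ratio scaling and 1667 to 1986 with quantile normalization, in place of 1317 to 2990. At 16 h it was 1047 to 947 and 1020 to 988, in place of 755 to 1384. The line comparisons match libraries by time through the time block. Replicate numbers name no such match, since each line has 1 library per time apart from null at 0 and 1 h. The unknown depth sets no counting limit for low members such as Usp11, Nedd4l and Pias3.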
